A study of Mus musculus with 2 samples.

Results

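Mitochondrially encoded RNA fragments were examined in the small RNA libraries of J1 mouse embryonic stem cells (mESCs), an established line. They were defined as the tags, that is the distinct small RNA sequences, which had no perfect match to a miRNA hairpin and matched one of the 37 mitochondrial genes (22 tRNAs, 2 rRNAs and 13 mRNAs) perfectly over their whole length. Of 1695245 tags in both libraries together, 6077 met this rule. They held 11996 of the 18870345 clean reads of the DMSO library and 14406 of the 20944808 clean reads of the PD library, or 0.0636% and 0.0688%.

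Both libraries came from J1 mESCs adapted to growth on gelatin, with serum replacement and 1000 U/mL of leukemia inhibitory factor (LIF), a cytokine that maintains self-renewal. The cells received 1 μM PD0325901 (PD), an inhibitor of the kinase MEK, or DMSO as the solvent control for 24 h. The RNA of 3 experiments was pooled for each treatment before sequencing, so that there was 1 library per treatment and no replicate. Differences are therefore given as the ratio of reads per 1000000 clean reads (RPM), PD over DMSO, with a 95% interval that covers the sampling of reads only, and a ratio of 1.5 either way, the criterion of the study, was used to count changes. No statement about the spread between cultures can be made, and no p-value is given.

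Both strands of the circular mitochondrial genome are transcribed into long RNAs that run over many genes. The tRNAs lie between the rRNAs and mRNAs, and cutting at the ends of the tRNAs releases the neighbouring RNAs. The mRNAs encode subunits of the respiratory chain (complexes I, III and IV) and of the ATP synthase (complex V), while the rRNAs and tRNAs serve the mitochondrion's own ribosome. The tRNAs receive a CCA end after transcription and carry methylated and otherwise modified bases, some of which make reverse transcriptase stop or insert another base.

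The 12 most abundant tags of both libraries together came from mt-Rnr2, mt-Tp, mt-Tc and mt-Rnr1, and they are shown with the place of the tag in its gene because they mark the sites at which the reads gathered. Capitals mark the anticodon in a tRNA, and in the other genes the stretch that the abundant tags of a site share. All positions count from the 5′ end of the gene.
mt-Rnr2, bases 1 to 25: ACTAATCCTAGCCCTAGCcctacac
mt-Rnr2, bases 1 to 24: ACTAATCCTAGCCCTAGCcctaca
mt-Rnr2, bases 1 to 23: ACTAATCCTAGCCCTAGCcctac
mt-Rnr2, bases 1 to 22: ACTAATCCTAGCCCTAGCccta
mt-Rnr2, bases 1 to 21: ACTAATCCTAGCCCTAGCcct
mt-Rnr2, bases 1 to 26: ACTAATCCTAGCCCTAGCcctacaca
mt-Rnr2, bases 1 to 30: ACTAATCCTAGCCCTAGCcctacacaaata
mt-Tp, bases 28 to 50: cttTGGgtgctggtggtggggag
mt-Tp, bases 28 to 48: cttTGGgtgctggtggtgggg
mt-Tc, bases 27 to 44: ttGCAaattcgaaggtgt
mt-Tc, bases 27 to 45: ttGCAaattcgaaggtgta
mt-Rnr1, bases 674 to 692: aACGTTAGGTCAAGGTGTa

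The most abundant tag of each other tRNA with at least 1 RPM shows the 3 kinds of place from which the reads came. The first 7 tags below began at base 1, the next 2 just before the anticodon and the others elsewhere.
mt-Tl1, bases 1 to 21: attagggtggcagagccagga
mt-Tq, bases 1 to 20: taggataaggtgtttaggta
mt-Ts1, bases 1 to 28: gagaaagacatataggatatgagattgg
mt-Ts2, bases 1 to 23: aagaaagattgcaagaactgcta
mt-Ti, bases 1 to 26: agaaatatgtctgataaaagaattac
mt-Tk, bases 1 to 25: cactatgaagctaagagcgttaacc
mt-Tt, bases 1 to 23: gtcttgatagtataaacattact
mt-Th, bases 27 to 47: actGTGaatctgacaacagga
mt-Tg, bases 28 to 47: actTCCaattagtagattct
mt-Tm, bases 25 to 49: cgggccCATaccccgaaaacgttgg
mt-Te, bases 50 to 69: ttgaatgctgtgtagaaata
mt-Tv, bases 40 to 67: agaagatttcatgaccaatgaacactct
mt-Ta, bases 39 to 60: atagatgtaggatgaagtctta
mt-Tl2, bases 14 to 37: aatagtaatccattggtctTAGga
mt-Ty, bases 13 to 31: gagtaagcattagactGTA
mt-Tw, bases 14 to 34: atactagtccgcgagcctTCA
mt-Tn, bases 40 to 58: aattttcgtaggtttaatt

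The libraries were first checked as a whole. Of the miRNA hairpins known from embryonic stem cells, including the miR-290 and miR-302 families, 13 of 13 annotated ones had reads, with a summed level of 31410 RPM in DMSO and 26690 RPM in PD. Annotated hairpins of fibroblasts (5 of 5), liver (1 of 1), muscle (3 of 3) and blood (1 of 2) had reads too, so the lists differed by level. The summed hairpins of fibroblasts, blood, liver and muscle ranged from 0.371 to 208.7 RPM in DMSO and from 0.955 to 178.9 RPM in PD. The libraries differed in tag length. The share of reads of 28 to 32 nt was 7.11% in DMSO and 17.0% in PD, and that of reads of 20 to 24 nt was 63.0% and 52.0%. Ratios at matched tag length, with the ratio of the whole library at each length as the reference, are therefore given beside the plain ones.

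The rRNAs gave 56.9% of the mitochondrial reads in DMSO and 51.8% in PD, the tRNAs 26.3% and 29.04%, and the mRNAs 16.8% and 19.1%. Together the fragments had 635.7 RPM in DMSO and 687.8 RPM in PD, a ratio of 1.08 (95% interval 1.06 to 1.11). At matched tag length the ratio was 1.01. In such bulk libraries, differences in the number of mitochondria in a cell, in the RNA of each of them and in the fragments of that RNA cannot be told apart.

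The classes differed from each other. The tRNA fragments had 167.2 RPM in DMSO and 199.8 RPM in PD (ratio 1.19, interval 1.14 to 1.25), and at matched tag length their ratio was 1.24. The rRNA fragments had 361.6 and 356.4 RPM (ratio 0.986, interval 0.954 to 1.02), and 0.963 at matched length. The mRNA fragments had 106.8 and 131.6 RPM (ratio 1.23, interval 1.16 to 1.31), but 0.899 at matched length. The direction of the mRNA ratio thus turned with tag length, and mt-Nd1 carried that turn: without it the mRNA ratio was 1.14 (interval 1.07 to 1.21), and 1.11 at matched length. Fragments of snoRNAs and scaRNAs, a nuclear class for comparison, had a ratio of 1.03 (interval 1.02 to 1.04), and 0.901 at matched length.

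By gene, 34 of the 37 had at least 1 RPM in either library. Of these, 7 were higher and 1 lower in PD by at least 1.5-fold, against 11.8% higher and 6.75% lower of all 12457 annotated genes with at least 1 RPM. The median ratio was 1.13 over the 34 genes and 1.02 over all genes. The 7 higher genes were mt-Th, mt-Tk, mt-Nd2, mt-Nd1, mt-Atp8, mt-Ts1 and mt-Ti, and the lower one was mt-Tw. At matched tag length 4 of the 34 genes were higher and 2 lower, against 11.7% higher and 9.44% lower of all genes. The 4 were mt-Th, mt-Tk, mt-Nd2 and mt-Ts2, and the 2 were mt-Nd1 and mt-Tw, while mt-Ti (1.45), mt-Atp8 (1.45) and mt-Ts1 (1.39) no longer reached 1.5. The genes mt-Tf, mt-Tr and mt-Td, the tRNAs of phenylalanine, arginine and aspartate, stayed below 1 RPM, with 18 and 10, 18 and 17, and 2 and 1 reads in DMSO and PD.

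**Figure D1:**
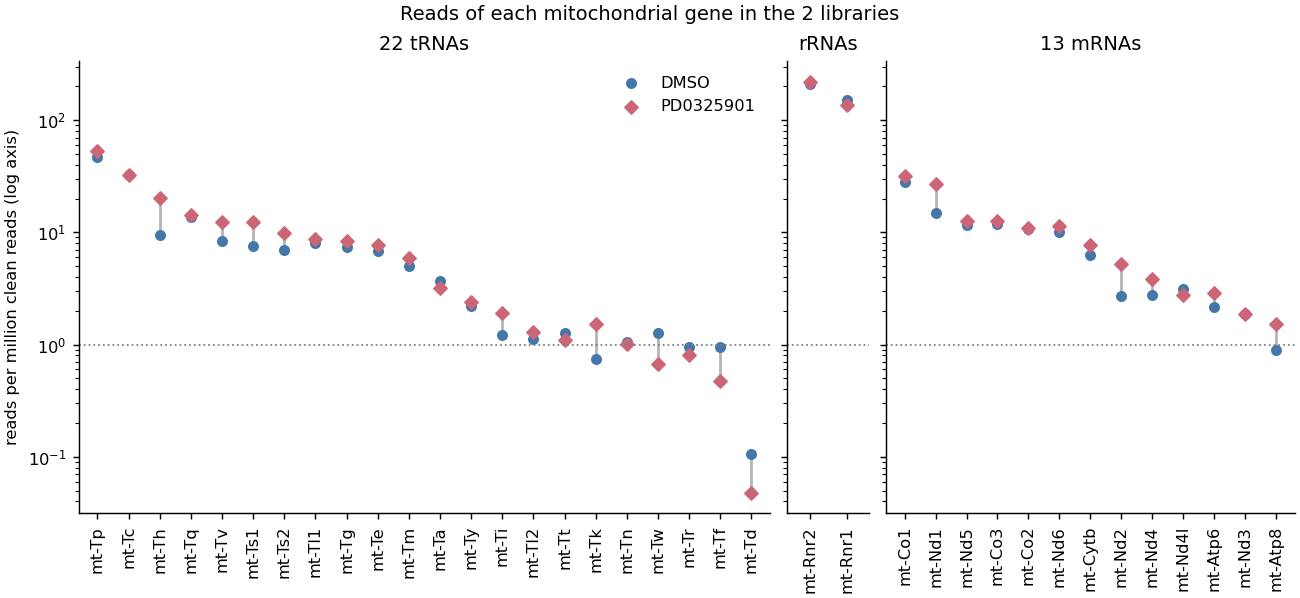
RPM (vertical log axis) of each mitochondrial gene, in the DMSO library (circles) and the PD library (diamonds), ordered by level within the tRNAs, the rRNAs and the mRNAs, with a dotted line at 1 RPM. Each point is 1 library. mt-Tp and mt-Tc lead the tRNAs in both libraries, and the widest upward gap among well-read tRNAs is that of mt-Th, from 9.49 to 20.4 RPM.

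Fragments of 2 tRNAs made up 47.3% of the tRNA reads in DMSO and 42.8% in PD. mt-Tp, the tRNA of proline on the minus strand (chrM:15356-15422 of GRCm38), had 878 reads in DMSO and 1117 in PD, or 46.5 and 53.3 RPM (ratio 1.15, interval 1.05 to 1.25). mt-Tc, the tRNA of cysteine on the minus strand (chrM:5192-5257), had 616 and 674 reads, or 32.6 and 32.2 RPM (ratio 0.986, interval 0.882 to 1.10). Per kilobase of gene, mt-Tp had 694.4 RPM and mt-Rnr2 133.5 RPM in DMSO, and a median of 63.0 RPM stood for the 22 tRNAs.

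mt-Th, the tRNA of histidine on the plus strand (chrM:11546-11612), rose from 179 to 427 reads, or from 9.49 to 20.4 RPM (ratio 2.15, interval 1.80 to 2.57). Its ratio was 2.43 at matched tag length. mt-Ts1, the tRNA that reads the UCN codons of serine (chrM:6870-6938, minus strand), had 143 and 260 reads, or 7.58 and 12.4 RPM (ratio 1.64, interval 1.33 to 2.02). At matched tag length the ratio of mt-Ts1 was 1.39, below 1.5. The intervals of the 2 genes lay above 1, and without them the tRNA ratio was 1.11 (interval 1.06 to 1.17).

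The other tRNAs past 1.5-fold had few reads. mt-Tk, the tRNA of lysine, had 14 reads in DMSO and 32 in PD (ratio 2.06, interval 1.07 to 4.18), and mt-Ti, that of isoleucine, had 23 and 40 (ratio 1.57, interval 0.916 to 2.74). mt-Tw, that of tryptophan, had 24 and 14 reads (ratio 0.526, interval 0.251 to 1.06). The intervals of mt-Ti and mt-Tw held 1.

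Among the tRNAs that stayed within 1.5-fold, mt-Ts2 (serine, AGY codons) had 132 and 208 reads and mt-Tv (valine) had 159 and 257, and their intervals lay above 1 (1.14 to 1.78 and 1.19 to 1.79). At matched tag length their ratios were 1.508, just past 1.5, and 1.13. mt-Tq (glutamine) had 257 and 297 reads, mt-Tl1 (leucine, UUR codons) 152 and 182, mt-Tg (glycine) 140 and 175, and mt-Te (glutamate) 130 and 162. mt-Tm (methionine) had 94 and 123 reads, mt-Ta (alanine) 70 and 67, mt-Ty (tyrosine) 42 and 50, mt-Tl2 (leucine, CUN codons) 21 and 27, mt-Tt (threonine) 24 and 23, and mt-Tn (asparagine) 20 and 21. The ratios of these 10 ran from 0.862 (mt-Ta) to 1.18 (mt-Tm), and each of their intervals held 1. By coding strand, the 14 tRNAs of the plus strand had 1000 and 1536 reads (ratio 1.38, interval 1.28 to 1.5), and the 8 of the minus strand 2156 and 2648 (ratio 1.11, interval 1.05 to 1.17). The sums lean on few genes: mt-Th gave 179 and 427 of the plus-strand reads. On the minus strand mt-Tp gave 878 and 1117 and mt-Tc 616 and 674.

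The rRNAs were the most read genes. mt-Rnr2, the 16S rRNA of the large ribosomal subunit (chrM:1094-2675), had 3984 and 4617 reads, or 211.1 and 220.4 RPM (ratio 1.04, interval 1.00 to 1.09). mt-Rnr1, the 12S rRNA of the small subunit (chrM:70-1024), had 2840 and 2848 reads, or 150.5 and 136.0 RPM (ratio 0.903, interval 0.857 to 0.952). At matched tag length both lay close to each other, at 0.960 and 0.967.

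Of the mRNAs of complex I, mt-Nd1 (chrM:2751-3707) had 280 reads in DMSO and 561 in PD, or 14.8 and 26.8 RPM (ratio 1.81, interval 1.56 to 2.09). Its tags were long, with 72.9% and 84.5% of its reads at 28 to 32 nt, and its ratio at matched tag length was 0.515, past 1.5-fold the other way. Counted from tags under 28 nt, mt-Nd1 had 76 and 87 reads (ratio 1.03). mt-Nd2 had 51 and 110 reads (ratio 1.94, interval 1.38 to 2.76), and its ratio of 1.75 at matched tag length kept the direction. mt-Nd3, mt-Nd4, mt-Nd4l, mt-Nd5 and mt-Nd6 had between 35 and 221 reads in DMSO, between 39 and 267 in PD, and ratios from 0.886 (mt-Nd4l) to 1.39 (mt-Nd4), with each interval holding 1.

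The mRNAs of the other complexes stayed within 1.5-fold but for mt-Atp8. mt-Co1, the largest subunit of complex IV, had 525 and 659 reads (ratio 1.13, interval 1.01 to 1.27), mt-Co2 had 204 and 227, and mt-Co3 had 223 and 263. The 3 together had a ratio of 1.09 (interval 0.997 to 1.19). mt-Cytb of complex III had 119 and 162 reads (ratio 1.23, interval 0.962 to 1.57). Of complex V, mt-Atp8 had 17 and 32 reads (ratio 1.70, interval 0.914 to 3.26) and mt-Atp6 had 41 and 60 (ratio 1.32, interval 0.872 to 2.01). Every read of mt-Co2, mt-Co3, mt-Nd4l and mt-Atp6 also matched a transcript annotated outside the mitochondrial genome, so their source cannot be told apart from the sequence. Of the reads of mt-Co1 only 144 of 525 in DMSO and 160 of 659 in PD matched no other transcript, of mt-Nd3 2 of 35 and 1 of 39, and of mt-Nd4 16 of 52 and 29 of 80. Over all 37 genes, 1323 of the 6077 tags also matched a transcript outside the mitochondrial genes, with 9.84% of the reads in DMSO and 9.93% in PD.

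By the mean of a class, tag length differed most between the tRNAs and the other classes. The mean length of the tRNA reads was 21.4 nt in DMSO and 21.9 nt in PD, that of the rRNA reads 22.9 and 23.7 nt, and that of the mRNA reads 23.8 and 24.7 nt. Genes within a class differed too. Among the tRNAs mt-Tc, with 616 and 674 reads, had means of 18.8 and 19.15 nt. mt-Rnr1 had 21.98 and 22.4 nt, and mt-Rnr2 23.6 and 24.5 nt. Without mt-Nd1 the mean of the mRNA reads was 23.05 and 23.6 nt, close to that of the rRNA reads, and the medians of the rRNA and the mRNA reads were equal, at 23 nt in DMSO and 24 nt in PD. At 28 to 32 nt the ratios of the 3 classes lay close together: the tRNA fragments had 168 and 374 reads (ratio 2.01, interval 1.67 to 2.42), the rRNA fragments 501 and 1148 (2.06, 1.86 to 2.30) and the mRNA fragments 337 and 768 (2.05, 1.80 to 2.34), while the whole library had a ratio of 2.38. At 20 to 24 nt they parted. There the tRNA fragments had 1772 and 2311 reads (ratio 1.18, interval 1.10 to 1.25), the rRNA fragments 3812 and 3590 (0.848, 0.811 to 0.888), and the mRNA fragments 1017 and 1124 (0.996, 0.914 to 1.09), against 0.826 for the whole library. The tRNA interval at this length did not overlap the rRNA interval.

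**Figure D2:**
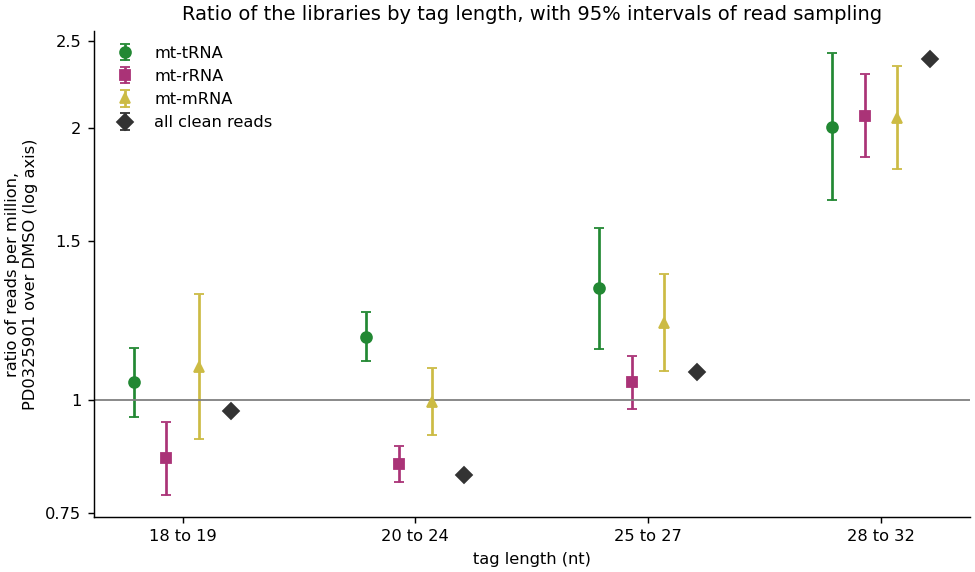
Ratio of RPM, PD over DMSO (vertical log axis), of the tRNA, rRNA and mRNA fragments and of all clean reads in 4 ranges of tag length, with bars for the 95% interval of read sampling (for all clean reads smaller than the symbol). At 28 to 32 nt the mitochondrial classes lie between 2.01 and 2.06 and all clean reads at 2.38, and at 20 to 24 nt the tRNA fragments, at 1.18, lie above the other classes.

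Single tags followed the same division by length. Of the 112 mitochondrial tags with at least 1 RPM in either library, 32 were higher and 23 lower in PD by 1.5-fold, against 21.5% higher and 25.6% lower of all 40613 tags at this level. Of the 14 mitochondrial tags of 28 to 32 nt, 12 were higher and 0 lower, and among all tags of that length 72.6% were higher and 2.01% lower. Of the 59 tags of 20 to 24 nt, 10 were higher and 13 lower, against 9.14% and 32.8% of all tags of these lengths. Many of these tags overlap in sequence and are not independent of each other.

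The place of the fragments within the tRNAs was then compared. A tag was taken as 5′ when it started within 2 bases of the first base of the tRNA, as 3′ when it ended within 2 bases of the last encoded base, and otherwise as internal. In DMSO 18.03% of the tRNA reads were 5′ (Wilson interval 16.7% to 19.4%), 77.3% were internal and 4.63% were 3′ (3.95% to 5.42%). In PD 18.9% were 5′ (17.8% to 20.1%), 75.1% internal and 5.98% 3′ (5.30% to 6.74%). The 5′ fragments had 569 and 791 reads (ratio 1.25, interval 1.12 to 1.40), the internal ones 2441 and 3143 (1.16, 1.10 to 1.22), and the 3′ ones 146 and 250 (1.54, 1.25 to 1.91, and 1.49 at matched tag length). Without mt-Tv the 3′ ones had 109 and 141 (ratio 1.17, interval 0.901 to 1.51).

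Many tRNA reads started just before the anticodon. The 5 bases before it held the start of 1725 tRNA reads in DMSO and 2263 in PD, or 54.7% (interval 52.9% to 56.4%) and 54.1% (52.6% to 55.6%), in a window that was chosen after its values were seen. mt-Tp and mt-Tc held 1373 and 1645 of these reads. Over the other 20 tRNAs the share was 21.2% in DMSO (352 of 1662 reads, interval 19.3% to 23.2%) and 25.8% in PD (618 of 2393, 24.1% to 27.6%). Of the 352 and 618 reads mt-Th held 116 and 349, while mt-Tg held 109 and 129 and mt-Tv 54 and 66. The rise of this share thus rested largely on mt-Th and does not describe the 20 tRNAs in general. In mt-Tc, mt-Tg, mt-Tr, mt-Th and mt-Tp the most frequent start lay 2 or 3 bases before the anticodon, so that these tags hold the anticodon and the 3′ side of its stem. In mt-Tc 594 of 616 reads in DMSO and 646 of 674 in PD started within 2 bases of base 27, and in mt-Tp 766 of 878 and 987 of 1117 started within 2 bases of base 28. In mt-Tg 109 of 140 and 129 of 175 reads did so.

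mt-Th moved at this site, which held 64.8% of its reads in DMSO and 81.7% in PD. The ratios of the site and of the gene are therefore not independent. The reads of mt-Th from within 2 bases of base 27 rose from 116 to 349, or from 6.15 to 16.7 RPM (ratio 2.71, interval 2.19 to 3.37), while those from around base 13 were 40 and 47 (ratio 1.06, interval 0.680 to 1.66). Of the tags that start at base 27, the 21 nt tag printed above had 43 and 134 reads, the 22 nt tag 34 and 114, and the 20 nt tag 7 and 26. A 20 nt tag from base 28 had 10 and 20 (ratio 1.80, interval 0.805 to 4.31). These overlapping tags are parts of the site's count and add no separate evidence. Of the reads at this site 1.72% in DMSO and 1.43% in PD were of 28 to 32 nt, the lengths that rose across the library, and the ratio at matched tag length was 3.27. The same site of mt-Tc had a ratio of 0.980 (interval 0.875 to 1.10), that of mt-Tg 1.07 (0.820 to 1.39) and that of mt-Tp 1.16 (1.06 to 1.28), and none of these intervals overlapped that of mt-Th.

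In 8 tRNAs the most frequent start was base 1 (mt-Tl1, mt-Ti, mt-Tq, mt-Tm, mt-Ts1, mt-Tk, mt-Ts2 and mt-Tt). In mt-Tl1 118 of 152 reads in DMSO and 151 of 182 in PD started there, and in mt-Ts2, a tRNA that lacks the D arm, 115 of 132 and 152 of 208. Another 8 had other starts, and mt-Td, with 3 reads at 3 different bases, had no most frequent one. mt-Te began most often at base 50 (53 and 55 reads), with tags that reach its last base, mt-Tv at base 40 (36 and 66), mt-Ta at base 35 (28 and 21), and mt-Tl2 at base 14 (9 and 16). In mt-Tv the 3′ fragments had 37 reads in DMSO and 109 in PD (ratio 2.65, interval 1.81 to 3.97), while its internal ones had 115 and 147 (ratio 1.15, interval 0.896 to 1.48). In mt-Ts2 a second site near base 16 had 6 and 35 reads (ratio 5.26, interval 2.19 to 15.3) beside 118 and 154 reads at its 5′ end (ratio 1.18, interval 0.919 to 1.51). These 2 sites were chosen after their values were seen.

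**Figure D3:**
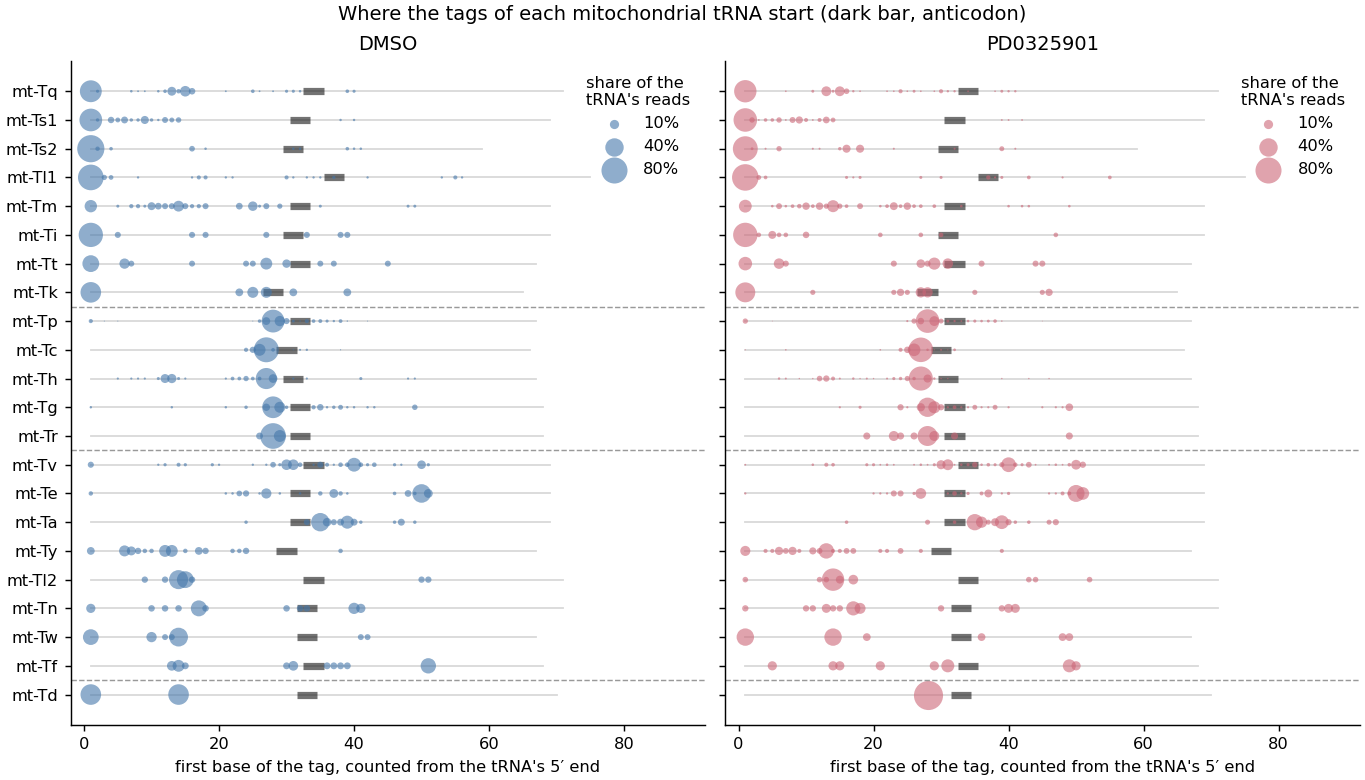
First base of the tags of each mitochondrial tRNA, counted from its 5′ end (horizontal axis), in the DMSO and the PD library, with the area of a circle for the share of that tRNA's reads and a bar for the anticodon. Dashed lines part the 8 tRNAs whose most frequent start was base 1, the 5 with starts just before the anticodon, the 8 others and mt-Td, which rests on 2 reads in DMSO and 1 in PD.

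The annotated tRNAs end before the CCA that is added after transcription, so tags with it were searched apart from the definition above. Tags that ran to the end of the tRNA and on into CCA had 123 reads in DMSO and 199 in PD (ratio 1.46, interval 1.16 to 1.84) and came from 21 of the 22 tRNAs. The most abundant were 2 tags of mt-Tg and mt-Th, shown with the added bases in capitals.
mt-Tg with CCA: aataaacccagaagagagtaCCA
mt-Th with CCA: ataaacctccttattcaccCCA
The mt-Tg tag had 9 and 27 reads and the mt-Th tag 7 and 16. Over all its CCA tags mt-Tg had 27 and 42 reads. mt-Th had 9 and 20, few beside the 116 and 349 reads from its anticodon loop.

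A large share of the rRNA fragments came from 4 sites, which held 3071 of the 6824 rRNA reads in DMSO and 3237 of the 7465 in PD. At the 5′ end of mt-Rnr2, 1274 reads in DMSO and 1397 in PD started at base 1. With neighbouring starts the site held 32.1% and 30.5% of the gene's reads (ratio 0.993, interval 0.920 to 1.07, and 0.852 at matched tag length). These tags formed a ladder with a common start and different 3′ ends. Its most frequent length was 25 nt (288 and 328 reads), and a second peak stood at 30 nt (69 and 153 reads, ratio 2.00, interval 1.49 to 2.70). The whole library had a ratio of 4.53 at 30 nt, above that interval. At 31 nt there were 4 and 51 reads (ratio 11.5, interval 4.22 to 43.8), and the whole library had a ratio of 8.73 at that length. At 18 nt the direction was the other one, with 34 and 7 reads (ratio 0.186, interval 0.0694 to 0.425), where the whole library had a ratio of 1.08.

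In mt-Rnr1 the 5′ end held 86 and 112 reads, and the main sites were internal. The site at base 517 had 843 and 834 reads (ratio 0.891, interval 0.809 to 0.982), and the site at base 673 had 601 and 557 (0.835, 0.743 to 0.939). The main tag of the second is printed above, and that of the first is given here with the shared stretch in capitals.
mt-Rnr1, bases 516 to 535: aaAGGACTTGGCGGTACTTt
The sites lie at chrM:586 and chrM:742 and together gave 50.8% of the reads of mt-Rnr1 in DMSO. Of the reads of each site in each library, 1.17% to 5.28% were of 28 to 32 nt. In mt-Rnr2 a further site at base 441 had 350 and 439 reads (ratio 1.13, interval 0.980 to 1.30). Of the rRNA reads 71.3% in DMSO and 71.1% in PD began with A, a base that makes up 38.1% of the rRNA genes. This share is weighted by reads and so by the large sites. The 1274 and 1397 reads from base 1 of mt-Rnr2 begin with A, as do the mt-Rnr1 tags shown.

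Most mRNA fragments were internal too, at 94.5% in DMSO and 95.4% in PD. mt-Nd1 had 1 site that gave 75.4% of its reads in DMSO and 81.3% in PD, around base 581 (chrM:3331). Its main tags, shown with their common stretch in capitals, were of 29 and 30 nt.
mt-Nd1, bases 581 to 609: ACCGGGCCCCCTTCGACCTGACAGAAGGA
mt-Nd1, bases 580 to 609: aACCGGGCCCCCTTCGACCTGACAGAAGGA
The first had 63 reads in DMSO and 128 in PD (ratio 1.83, interval 1.34 to 2.52) and the second 51 and 126 (2.23, 1.60 to 3.15). The whole library had ratios of 2.39 at 29 nt and 4.53 at 30 nt, which lay inside the interval of the first tag and above that of the second.

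Some mRNAs had tags at their first base. mt-Co2 had 62 and 65 reads from base 1, or 30.4% and 28.6% of its reads (ratio 0.945, interval 0.657 to 1.36), and its main tag starts with the start codon.
mt-Co2, bases 1 to 27: ATGGCCTACCCATTCCAACTTGGTCTA
In mt-Atp8 17 of 17 reads in DMSO and 27 of 32 in PD started at or near base 1. In mt-Co1 sites of the same gene differed. The site at base 343 had 69 and 77 reads (ratio 1.01, interval 0.717 to 1.41), and the site at base 355 had 39 and 98 (2.26, 1.55 to 3.37). In mt-Nd6 the site at base 407 had 11 and 38 reads (3.11, 1.56 to 6.75), and in mt-Co3 the site at base 322 had 53 and 36 (0.612, 0.389 to 0.952). The sites of mt-Co1 at base 355, of mt-Nd6 and of mt-Co3 were named after their values were seen. Every tag of the sites of mt-Co1, mt-Co2 and mt-Co3 given here also matched a transcript outside the mitochondrial genes, and no tag of the mt-Nd6 site did.

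The start sites were largely those of both libraries. Tags found in both libraries were 1660 of the 6077, and they held 80.2% of the mitochondrial reads in DMSO and 77.0% in PD, while 3571 tags (58.8%) had 1 read over both libraries. Across start positions, the reads of the libraries had a Pearson correlation of 0.974 over 420 positions of the tRNAs, 0.995 over 821 of the rRNAs and 0.920 over 1231 of the mRNAs. The rank correlations were 0.508, 0.583 and 0.0815. These are descriptions across positions of 1 pair of libraries, which share their sequence and method, and the few large sites set the Pearson values.

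Tags with exactly 1 mismatch to a mitochondrial gene, and no perfect match to a transcript, added 1892 reads in DMSO and 2690 in PD (1800 tags). In 877 and 1323 of these reads the mismatch was the last base of the tag. That last base was A in 83.8% of them in DMSO and 63.9% in PD, while the reads with A were 735 and 845 (ratio 1.04, interval 0.937 to 1.15). Reads with T as the last base were 62 and 380, and 52 and 62 without the 29 nt tags of mt-Ts1 described next. The source of that base was not tested.

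A tag of mt-Ts1 ended in such a base, shown with the mismatch in capitals.
mt-Ts1, bases 1 to 29, C29T: gagaaagacatataggatatgagattggT
It had 10 reads in DMSO and 318 in PD, or 0.530 and 15.2 RPM (ratio 28.6, interval 15.4 to 60.3). With T, A or G at this base together, the mismatched 29 nt tags had 12 and 377 reads (ratio 28.3, interval 16.0 to 55.3). The perfect 29 nt tag had 0 and 4 reads, and the 28 nt tag that ends 1 base before had 41 and 76. The whole library had a ratio of 2.39 at 29 nt. With mismatched tags counted, mt-Ts1 had 306 and 869 reads (ratio 2.56, interval 2.24 to 2.92) in place of 143 and 260. Without the 29 nt tags, last-base mismatches over the mitochondrial genes had 865 and 946 reads (ratio 0.985, interval 0.898 to 1.08). A tag of mt-Tl1 with a mismatch inside it also had a high ratio.
mt-Tl1, bases 1 to 30, G28T: attagggtggcagagccaggaaattgcTta
It had 1 read in DMSO and 43 in PD (ratio 38.7, interval 6.59 to 1565), and the whole library had a ratio of 4.53 at 30 nt. All mt-Tl1 tags with a mismatch at base 28 together had 40 and 101 reads (ratio 2.275, interval 1.56 to 3.37). The mt-Ts1 tag and the mt-Tl1 tag shown were named after their values were seen.

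**Figure D4:**
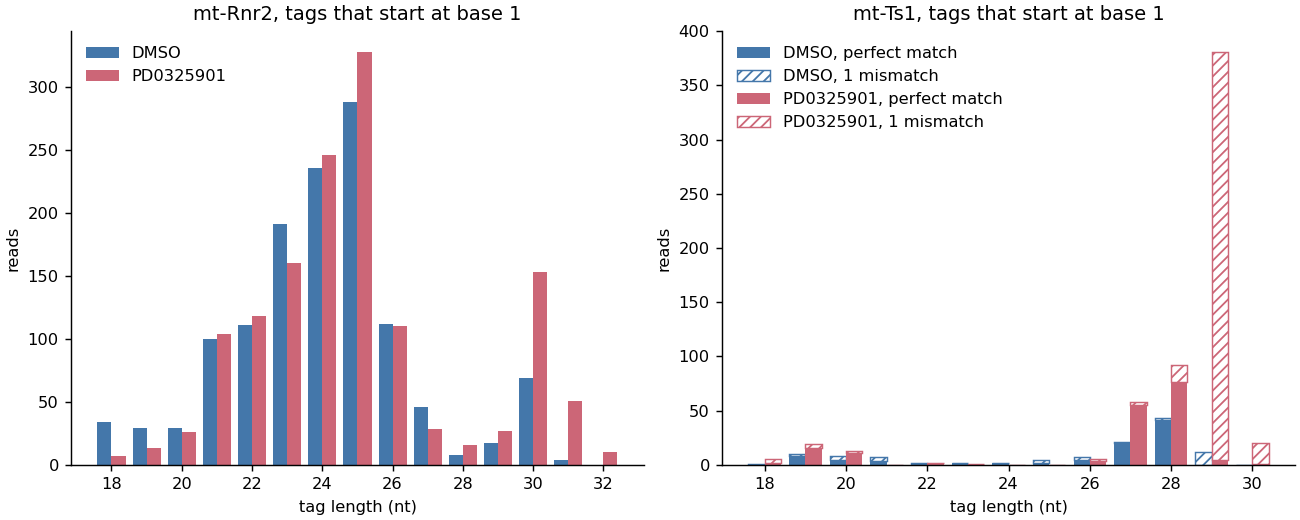
Reads (vertical axis) by tag length in nt of the tags that start at base 1 of mt-Rnr2 and of mt-Ts1, in the DMSO and the PD library, with hatched parts for mt-Ts1 tags with 1 mismatch. mt-Rnr2 has peaks at 25 and 30 nt in both libraries, and in mt-Ts1 the mismatched 29 nt tags, with 12 reads in DMSO and 377 in PD, exceed its perfect tags in PD.

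Base 29 of mt-Ts1 lies 2 bases before the anticodon, a place where a methylated cytosine is known in this tRNA and in mt-Tt. It was a place of mismatches inside longer tags as well: of the reads that covered it at least 3 bases from their end, 80.3% in DMSO (61 of 76, interval 70.0% to 87.7%) and 71.2% in PD (89 of 125, 62.7% to 78.4%) differed there, mostly as C29T. Base 9 is a further known place of methylation in mitochondrial tRNAs. In mt-Tt it differed in 87.8% of reads in DMSO (86 of 98) and 93.2% in PD (124 of 133), mostly as A9T, and in mt-Tl1 in 32.4% (61 of 188) and 31.2% (72 of 231), mostly as G9T. These 3 were the positions with at least 50 reads in each library and a mismatch in at least 20% of the reads of both.
mt-Tt, bases 1 to 23, A9T: gtcttgatTgtataaacattact
mt-Tl1, bases 1 to 21, G9T: attagggtTgcagagccagga
mt-Tp, bases 28 to 50, G34T: ctttggTtgctggtggtggggag
The mt-Tt tag had 29 and 41 reads, against 5 and 3 of the perfect tag of the same bases. The mt-Tl1 tag had 21 and 13 reads. In mt-Tp, base 34, which follows the anticodon, differed in 16.2% of reads in DMSO (150 of 927) and 13.6% in PD (159 of 1171), and it is named here although it missed the 20%. The intervals of the libraries overlapped at each of these 4 positions. What changed the bases was not tested.

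Counting perfect matches alone therefore left out most reads of some tRNAs. mt-Tt had 24 and 23 reads that matched perfectly, and 172 and 259 with mismatched tags (ratio 1.36, interval 1.11 to 1.66). mt-Tw had 24 and 14, and 63 and 53 with mismatched tags (ratio 0.758, interval 0.516 to 1.11), so that it was no longer past 1.5-fold. With mismatched tags mt-Tk (33 and 53 reads, ratio 1.45), mt-Ti (35 and 54, 1.39) and mt-Atp8 (25 and 39, 1.41) also fell below 1.5. mt-Tf, with 23 and 14 reads, then passed 1 RPM and was lower (ratio 0.548, interval 0.261 to 1.11). mt-Th had 208 and 472 (ratio 2.04, interval 1.73 to 2.42), and mt-Tp 1084 and 1386 (ratio 1.15, interval 1.06 to 1.25).

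The other strand of the mitochondrial genes gave reads as well. Antisense tags had 2042 reads in DMSO and 2448 in PD (ratio 1.08, interval 1.02 to 1.15, and 1.05 at matched tag length), from 3191 tags. Most were antisense to the 12 mRNA genes of the plus strand, with 1838 and 2240 reads, beside 1827 and 2518 sense reads of these genes. Antisense reads of the rRNA genes were 37 and 36, beside 6824 and 7465 sense reads. mt-Nd6, the mRNA gene of the minus strand, had 6 and 11 antisense and 189 and 239 sense reads.

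Antisense reads outnumbered sense reads in 7 of the 13 mRNA genes in DMSO and in 6 in PD, where mt-Nd2, the seventh, had 110 of each. mt-Nd5 had 439 antisense reads in DMSO and 554 in PD, beside 221 and 267 sense reads. mt-Nd4 had 261 and 259 beside 52 and 80, and mt-Cytb 241 and 264 beside 119 and 162. mt-Nd3 had 130 and 187 beside 35 and 39. In mt-Co1 the sense reads led, with 525 and 659 beside 156 and 202. Of the 3191 antisense tags, 1 also matched a transcript outside the mitochondrial genes. Transcripts were searched on their sense strand only, so this count cannot be set against that of the sense tags. The source of the antisense reads was not tested.

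**Figure D5:**
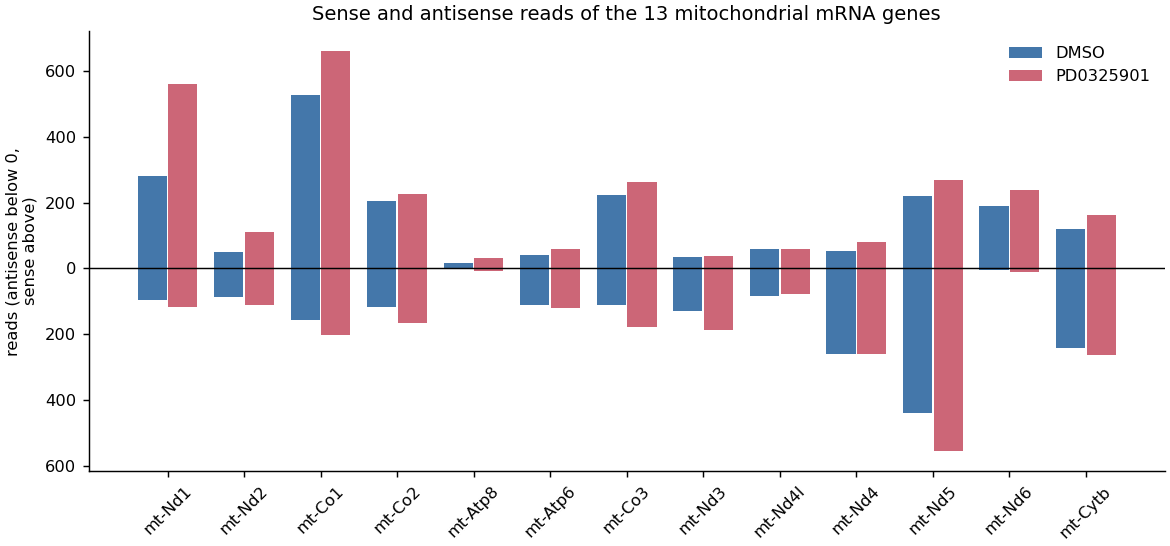
Sense reads (above 0) and antisense reads (below 0) of the 13 mitochondrial mRNA genes in genome order, in the DMSO and the PD library. mt-Nd1 and mt-Co1 have more sense than antisense reads, mt-Nd4, mt-Nd5, mt-Cytb and mt-Nd3 more antisense than sense reads, and mt-Nd6, which lies on the other strand, has 6 and 11 antisense reads.

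Tags that crossed from one mitochondrial gene into its neighbour were rare, with 49 reads in DMSO and 50 in PD. The ratio of antisense reads was highest among the genes with at least 100 of them in each library in mt-Co3, with 111 and 179 reads (ratio 1.45, interval 1.14 to 1.86). For mt-Nd5 it was 1.14 (interval 1.00 to 1.29), and for mt-Nd4 0.894 (0.7499 to 1.07).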

How the data were processed

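Small RNA of J1 mESCs treated with DMSO or PD was sequenced, 1 library per treatment, each of RNA pooled from 3 experiments. The authors filtered the reads for quality, adapters, contaminants and a length of at least 18 nt. The deposited files give the raw count of clean reads of every tag, neither aligned nor normalized. The submitters' processing notes name mm9. The files hold no coordinates, and those given here are of GENCODE M21 on GRCm38.

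Tags of 18 to 44 nt were matched to 141767 transcripts and 1174 miRNA hairpins (Python 3.11.15, numpy 2.4.6, numba 0.67.0), perfectly, over their whole length and on the sense strand. Tags were counted for each gene they matched, and 0 matched more than 1 mitochondrial gene. RPM used all clean reads (18870345 and 20944808), so that 3 reads, taken as the floor, were 0.159 and 0.143 RPM, and no ratio is given where both libraries had 3 reads or fewer. Ratios have exact (Clopper-Pearson) and shares Wilson 95% intervals (SciPy 1.17.1), for counting error only. A gene or tag was counted as changed with at least 1 RPM in either library and a ratio of 1.5 or more either way. With 1 library per treatment, the tests of edgeR and DESeq2 were not run. Antisense tags and tags across gene borders were matched to the joined gene sequences, which lack 57 bases between genes and what follows base 15422. Anticodons were placed by the stem around them. Mismatch positions left out the first 2 and last 3 bases of a tag.

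Named were the genes with at least 1 RPM or past 1.5-fold, the 12 most abundant tags, the most abundant tag of each such tRNA, and mismatch positions with 50 reads and 20% in both libraries. Other sites, tags and genes were not set by this rule. For some the text states that they were chosen after their values were seen. The sites of mt-Th and mt-Nd1 and the antisense ratio of mt-Co3 were not set by the rule either. The genes and lists were chosen with earlier results of these data known. Alternatives were other denominators (reads of hairpins, of 20 to 24 nt or matching transcripts), TMM of edgeR 4.0.16 and size factors of DESeq2 1.42.0 in R 4.3.3, other filters and thresholds, and other sets of tags. Matching, ratios and counts of changes were tested on simulated data.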

Additional observations from a re-analysis of the deposited data

How the results depend on the processing

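Each library stood alone, so culture-to-culture variation was not measured, and the intervals cover the sampling of reads only. Genes with few reads, such as mt-Tk, mt-Ti, mt-Atp8 and mt-Tw, cannot be placed on either side of 1.5-fold at this depth. The D-loop was not analysed here. No paired analysis was possible because there was 1 library per treatment. In what follows, ratios are PD over DMSO and are given in the order all mitochondrial, tRNA, rRNA and mRNA reads, where 1.08, 1.19, 0.986 and 1.23 were reported.

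The tRNA ratio stayed above 1 under its 15 alternatives (1.11 to 1.45), while the rRNA ratio lay above 1 in 4 and below 1 in 9 of 13. With reads of miRNA hairpins as the denominator the ratios were 1.24, 1.37, 1.13 and 1.41, with reads of 20 to 24 nt 1.31, 1.45, 1.19 and 1.49, and with reads that match transcripts 1.21, 1.33, 1.10 and 1.37. Tags of 22 nt or more gave 1.18, 1.34, 1.08 and 1.32. TMM moved the first ratio to 1.055. Without tags that match elsewhere the mRNA ratio was 1.35. With mismatched tags the first 2 ratios were 1.11 and 1.27. Chosen after seeing the data were matched tag length, which gave 1.015 over all reads and turned the mRNA ratio to 0.899, tags under 28 nt, which turned the ratio of all reads to 0.993 and gave 0.900 for rRNA and 1.07 for mRNA reads, and leaving out mt-Nd1 (mRNA 1.14) or mt-Th and mt-Ts1 (tRNA 1.11). The cause of the turns beyond tag length was not tested.

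Of the mitochondrial genes, 7 were higher and 1 lower in PD as reported. There were 11 and 2 with the hairpin reads and with the reads of 20 to 24 nt as denominator, 10 and 2 with reads that match transcripts, 4 and 2 at matched tag length, an alternative chosen after seeing the data, and 2 lower with at least 10 reads in both libraries. Without a filter 3 were lower, with a 2-fold threshold 2 were higher and 0 lower, with mismatched tags 4 were higher, and with tags of 22 nt or more or without tags seen once 0 were lower.

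The tRNA reads at the 5′ end were 18.03% in DMSO and 18.9% in PD as reported, 24.4% and 24.05% with tags of 22 nt or more, 23.4% and 29.98% with mismatched tags, and 16.4% and 15.98% with tags under 28 nt, and 20.15% in PD with ends within 5 bases. The mismatched tags include the 29 nt tags of mt-Ts1, which start at base 1 and had 12 reads in DMSO and 377 in PD. The tRNA reads at the 3′ end were 4.63% and 5.98% as reported, 2.82% and 4.09% with tags of 22 nt or more, 3.67% and 4.41% with mismatched tags, 8.90% and 10.7% with tags ending in C, CC or CCA, 3.14% and 3.56% with exact ends, 5.99% and 7.12% with ends within 5 bases, and in PD 5.12% with tags under 28 nt.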
